A study of Rattus norvegicus with 8 samples.

Results

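The genes described here are those of the adipocyte and of lipid storage: adipokines, proteins of the lipid droplet, enzymes that make or break down triglyceride, fatty acid carriers, and the regulators of fat cell identity. The list holds 33 genes, and a probe set was taken as a member when the array annotation gave it exactly 1 gene symbol and that symbol was on the list. It found 32 of the 33 genes, on 54 of the 31042 probe sets measured (controls left out). Retn, the gene of resistin, had no probe set with its symbol. Of the 54 probe sets, 46 passed a filter on low intensity and were tested; these cover 30 genes, and Lep and Ucp1 had no tested probe set.

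RNA came from the ventral prostate of Sprague-Dawley rats, males of the F3 generation, on 8 one-colour Affymetrix arrays in 4 groups of 2. Whole ventral prostate of vinclozolin and of control lineage males was taken at an age of 180 days. Epithelium of the prostate, again of vinclozolin and of control lineage males, was taken at 45 days. Pregnant founder rats had been injected intraperitoneally on embryonic days 8 to 14; vinclozolin is a fungicide whose metabolites block the androgen receptor, and the controls descend from rats given the vehicle DMSO. The treatment text of every sample, those titled vinclozolin included, names only DMSO, so the groups rest on the titles, and whole prostates were pooled in unstated number while each epithelium sample pooled 11 animals. It is not stated whether a group's 2 samples held different animals, and p-values therefore rest on a spread that may be technical. Age and preparation changed together and cannot be told apart: wherever whole prostate is set against epithelium below, the comparison is of 180-day whole prostate with 45-day epithelium.

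White adipocytes store energy as triglyceride in a single large droplet. Lipoprotein lipase frees fatty acids from circulating lipoproteins, carriers and acyl-CoA synthetases bring them into the cell, and a chain of acyltransferases joins them to glycerol phosphate. Perilipins and CIDE proteins coat the droplet and regulate access of the lipases that release the fat again. PPAR gamma (Pparg) and C/EBP alpha (Cebpa) are the transcription factors that establish the programme, and adiponectin and adipsin are secreted almost solely by adipocytes. The rat ventral prostate lies beside fat of the pelvis, and its own secretory epithelium, which depends on androgen, also makes and activates fatty acids.

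Adipoq, Cfd, Cidec, Thrsp, Pck1, Lpl, Fabp4 and Car3 were the members with a log2 difference of 2 or more between whole prostate and epithelium in both lineages on the same probe set. The upstream sequences of the first 5, which matched a RefSeq promoter, are shown to set side by side genes that moved together. They are the 250 bases before one RefSeq start of each gene in rat assembly GRCr8, read 5′ to 3′ on the gene's own strand. The windows are chr11:91240170-91240419 (minus strand) for Adipoq, chr7:10465497-10465746 (minus) for Cfd, chr4:148137116-148137365 (minus) for Cidec, chr1:161138965-161139214 (minus) for Thrsp and chr3:182348322-182348571 (plus) for Pck1. Capitals mark matches to any of 6 motifs searched on both strands.
Adipoq: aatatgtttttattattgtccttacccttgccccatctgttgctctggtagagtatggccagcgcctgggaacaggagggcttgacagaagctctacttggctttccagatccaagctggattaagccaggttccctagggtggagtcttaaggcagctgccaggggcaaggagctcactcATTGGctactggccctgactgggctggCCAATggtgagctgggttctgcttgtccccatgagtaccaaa
Cfd: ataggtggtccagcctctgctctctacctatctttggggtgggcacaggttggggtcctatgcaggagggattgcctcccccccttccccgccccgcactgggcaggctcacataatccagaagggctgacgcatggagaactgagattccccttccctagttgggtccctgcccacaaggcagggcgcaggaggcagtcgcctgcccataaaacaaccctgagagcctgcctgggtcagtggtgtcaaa
Cidec: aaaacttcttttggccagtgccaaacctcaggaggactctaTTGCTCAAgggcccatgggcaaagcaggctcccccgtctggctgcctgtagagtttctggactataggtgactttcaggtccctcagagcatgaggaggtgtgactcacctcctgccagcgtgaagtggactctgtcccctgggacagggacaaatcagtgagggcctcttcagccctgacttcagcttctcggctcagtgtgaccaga
Thrsp: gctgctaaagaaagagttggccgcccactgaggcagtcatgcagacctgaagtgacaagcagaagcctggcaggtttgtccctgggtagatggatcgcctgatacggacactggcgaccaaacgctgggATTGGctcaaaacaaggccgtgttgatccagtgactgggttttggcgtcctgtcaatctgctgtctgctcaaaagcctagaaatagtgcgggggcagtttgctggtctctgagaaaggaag
Pck1: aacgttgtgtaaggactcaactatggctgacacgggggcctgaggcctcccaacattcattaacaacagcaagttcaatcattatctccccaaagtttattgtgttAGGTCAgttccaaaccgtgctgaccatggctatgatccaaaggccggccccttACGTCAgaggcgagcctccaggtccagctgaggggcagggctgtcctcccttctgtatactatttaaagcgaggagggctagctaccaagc

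The motifs were AGGTCA, the nuclear receptor half-site, TTGCNNAA, the core of C/EBP sites, TATAAA, the TATA box, AGAACA, a steroid receptor half-site, CCAAT, the CCAAT box, and TGACGT, the half-site of cyclic AMP response elements. The Adipoq window held CCAAT at 42 to 38 bases before the start and its complement ATTGG at 69 to 65. Cidec held 1 match to TTGCNNAA at 209 to 202, Thrsp held ATTGG at 121 to 117, and Cfd held none of the 6. Pck1, the gene of cytosolic phosphoenolpyruvate carboxykinase, held AGGTCA at 144 to 139 and ACGTCA, the complement of TGACGT, at 91 to 86; cyclic AMP is a known inducer of this gene. Over all 33469 RefSeq promoter windows of that length, AGGTCA occurred in 14.1%, TTGCNNAA in 9.2%, TATAAA in 12.9%, AGAACA in 17.5%, CCAAT in 34.0% and TGACGT in 6.9%. A RefSeq promoter was found for 22 of the 33 members, 28 windows in all, of which 3, 4, 3, 4, 10 and 2 held these motifs in the same order. A match is a run of letters and was not tested as a binding site.

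Some of the adipocyte genes, Lpl, Cfd, Adipoq, Cidec and Fabp4 among them, gave a higher signal in whole prostate than in epithelium in both lineages, while most of the other member probe sets did not pass. On the log2(intensity + 16) scale, 19 of the 46 tested member probe sets were higher and 2 lower in whole prostate than in epithelium in the vinclozolin lineage, by limma at an adjusted p under 0.05. In the control lineage 22 were higher and 2 lower. Many other genes differed as well: of all 21729 probe sets tested, 14.2% were called higher and 13.1% lower in the vinclozolin lineage, 27.4% in all, and 15.0% higher and 12.9% lower, 27.8% in all, in the control lineage, against 45.7% and 52.2% of the member probe sets called in either direction. The median log2 change of the tested members was 0.58 in the vinclozolin lineage and 0.55 in the control lineage, beside medians of 0.057 and 0.055 over all probe sets. Without the first or the second control whole prostate array the control lineage kept 15 member calls each time, of 2648 and 2716 over all probe sets. Centring each array on its median moved the median of all probe sets to 0.17 and 0.20 and gave 24 higher and 2 lower members in the vinclozolin lineage and 25 and 2 in the control lineage, while the values as deposited gave -0.04 and -0.039 with 18 and 4, and 19 and 5. Over all 54 member probe sets, untested ones included, the medians were 0.47 and 0.46. Both lineages called 19 of the 46 member probe sets (41.3%) in the same direction, 90.5% of the vinclozolin calls and 79.2% of the control calls, beside 3743 of all probe sets tested (17.2%), which are 62.9% and 61.9% of all calls; 0 members and 55 of all probe sets were called in opposite directions; the lineages share no arrays but share 1 estimate of the spread. In bulk RNA, fewer cells of a type and less RNA per cell cannot be told apart.

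**Figure D1:**
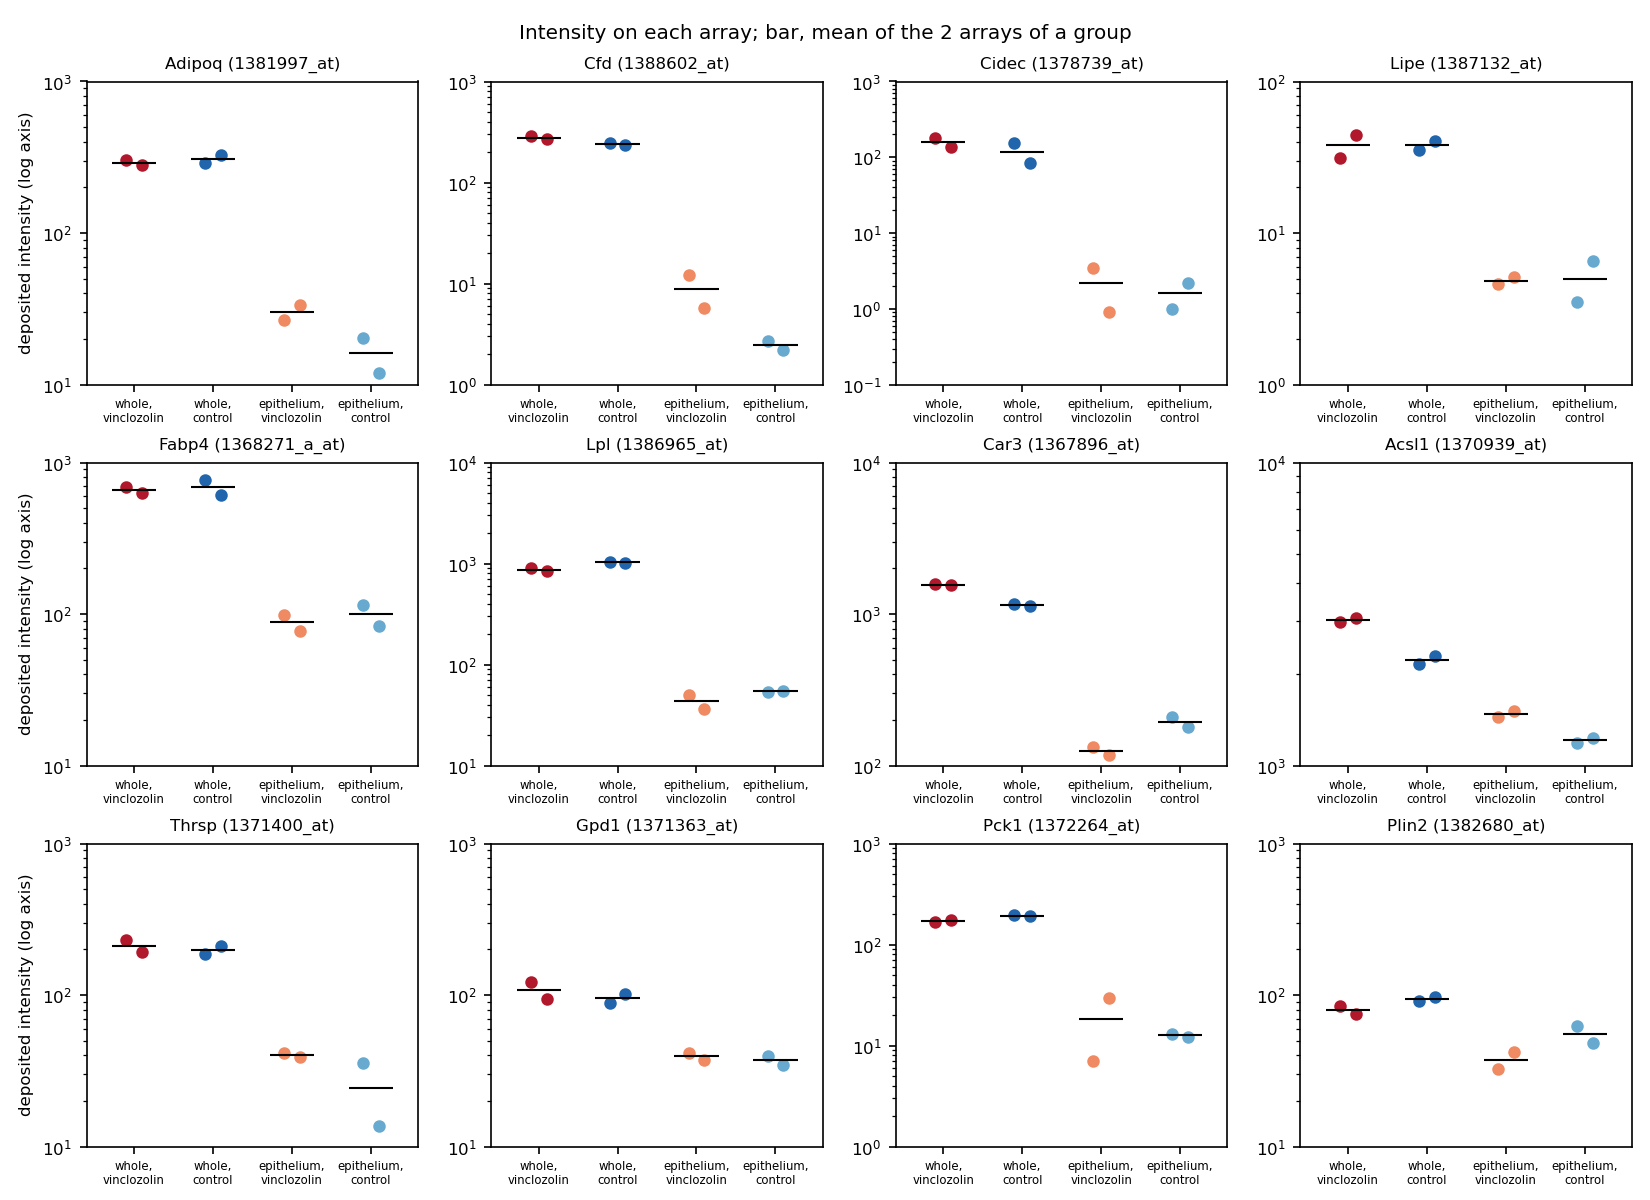
Deposited intensity (log axis) on each of the 8 arrays for 12 member probe sets, by group; points are single arrays and bars the mean of the 2 arrays of a group. The 4 whole prostate arrays lie above the 4 epithelium arrays in every panel, and Car3 also separates the lineages in opposite directions in whole prostate and epithelium.

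The secreted proteins showed some of the widest gaps. Adipoq (adiponectin, probe set 1381997_at) read 301.3 and 279.8 intensity units in vinclozolin whole prostate and 291.2 and 325.8 in control whole prostate, against 26.8 and 33.5 in vinclozolin epithelium and 20.4 and 12 in control epithelium. Cfd (adipsin, the complement factor D protease) read 285.7 and 272.0 in vinclozolin whole prostate and 246.5 and 234.1 in control whole prostate, against 12.1 and 5.7 in vinclozolin epithelium and 2.7 and 2.2 in control epithelium. In neither gene did any whole prostate array come near an epithelium array. Adipoq was higher by 2.85 ± 0.16 log2 units (SE, n = 2 a group here and below, limma) in the vinclozolin lineage and 3.38 ± 0.16 in the control lineage, and Cfd by 3.64 ± 0.14 and 3.78 ± 0.14, with the largest adjusted p of these at 0.000134. Adding 16 understates the change of probe sets this dim in the epithelium. Leptin (Lep), the satiety hormone, was dim everywhere: 6.2 and 4.0 in vinclozolin whole prostate and 1.6 and 1.7 in control whole prostate, against 14.3 and 32.3 in vinclozolin epithelium and 0.8 and 4.1 in control epithelium. Its highest values thus lay in vinclozolin epithelium, not with Adipoq and Cfd, and it was not tested.

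Among the droplet coat genes, Cidec stood out. Cidec, the CIDE protein of large single droplets, read 179.9 and 137.8 in vinclozolin whole prostate and 152.2 and 82.9 in control whole prostate, against 3.5 and 0.9 in vinclozolin epithelium and 1.0 and 2.2 in control epithelium. It was higher in whole prostate by 3.29 ± 0.25 (adjusted p = 0.000383, limma) in the vinclozolin lineage and 2.90 ± 0.25 (0.000628) in the control lineage. The perilipins differed less. Plin1, the perilipin of adipocytes, read 45.7 and 71.1 in vinclozolin whole prostate and 59.8 and 64 in control whole prostate, against 27.2 and 2.5 in vinclozolin epithelium and 41.3 and 24.8 in control epithelium, on probe set 1392583_at. Plin1 was higher by 1.55 ± 0.36 (0.0224) in the vinclozolin lineage and by 0.84 ± 0.36 (0.134) in the control lineage, where it did not pass, and its second probe set was too dim to test. Plin2, the perilipin of lipid droplets in most cell types, gave a different picture on each of its 2 probe sets.

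On 1382680_at, Plin2 read 85.3 and 75.2 in vinclozolin whole prostate and 90.8 and 97.8 in control whole prostate, against 32.7 and 42.3 in vinclozolin epithelium and 62.5 and 48.3 in control epithelium, and it rose in both lineages, by 1.05 ± 0.16 (adjusted p = 0.00489, limma) and 0.74 ± 0.16 (0.0161). On 1390383_at it read 269.0 and 268.4 in vinclozolin whole prostate and 293.5 and 284.4 in control whole prostate, against 146.7 and 153.6 in vinclozolin epithelium and 322.0 and 239.0 in control epithelium. That probe set rose in the vinclozolin lineage, by 0.77 ± 0.16 (0.0145), and gave -0.02 ± 0.16 in the control lineage, where the groups overlapped. Plin4, another perilipin abundant in adipocytes, read 71.5 and 81.6 in vinclozolin whole prostate and 96.7 and 107.0 in control whole prostate, against 84.7 and 44.0 in vinclozolin epithelium and 58.3 and 51.7 in control epithelium. Cidea, which in mice marks brown fat and also acts in other lipid-secreting cells, read 44.4 and 51.9 in vinclozolin whole prostate and 79.8 and 61.8 in control whole prostate, against 79.3 and 89.8 in vinclozolin epithelium and 54.1 and 40.1 in control epithelium. The sign of Cidea thus differed between lineages: it rose in the control lineage by 0.60 ± 0.16 (0.037) and gave -0.48 ± 0.16 (0.075) in the vinclozolin lineage. Plin4 rose in the control lineage by 0.83 ± 0.25 (0.0483) and gave 0.41 ± 0.25 (0.259) in the vinclozolin lineage.

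These smaller perilipin and CIDE calls depended on single arrays and on the processing. Plin4 lost its call without any 1 of 6 arrays, the 4 control ones among them, with adjusted p (limma) of up to 0.185, and passed in the vinclozolin lineage without the first vinclozolin epithelium array (0.0252). Cidea lost it without either control whole prostate array (0.188 and 0.0664), without either vinclozolin whole prostate array (0.0545 and 0.0547) and without the second control epithelium array (0.142). Plin1 lost it without either vinclozolin whole prostate array (0.0519 and 0.107) and without the second vinclozolin epithelium array (0.0557), which read 2.5, and it passed in the control lineage without either vinclozolin epithelium array (0.0406 and 0.0403). With all arrays, Cidea also lost its call with the values as deposited (0.0839), with no filter (0.0617), with only the arrays compared (0.0743) and with a replicate block (0.057). Plin4 lost it with the values as deposited (0.0596), with 1 added in place of 16 (0.0797), with no filter (0.074) and with a replicate block (0.0626), and Plin1 with 1 added (0.0767) and with only the arrays compared (0.0732). The control-lineage call of Plin2 1382680_at was lost without either control whole prostate array (0.0723 and 0.0895) or the second control epithelium array (0.0658). The vinclozolin-lineage call of Plin2 1390383_at was lost without any 1 of the 4 vinclozolin arrays (0.0511 to 0.0649).

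The lipases and the glycerol channel moved in both directions, and less. Lipe, hormone-sensitive lipase, read 31.2 and 44.6 in vinclozolin whole prostate and 35.3 and 40.5 in control whole prostate, against 4.6 and 5.1 in vinclozolin epithelium and 3.5 and 6.5 in control epithelium, on 1387132_at. This probe set rose by 1.51 ± 0.15 (adjusted p = 0.0012, limma) and 1.52 ± 0.15 (0.00113) in the vinclozolin and the control lineage. The other Lipe probe set, 1382465_at, read 38.5 to 78.6 over the 8 arrays with the preparations overlapping, and passed in neither lineage (0.15 ± 0.29 and -0.24 ± 0.29). Mgll, monoacylglycerol lipase, which releases the last fatty acid, ran the other way on 1370831_at: 11.0 and 7.7 in vinclozolin whole prostate and 1.4 and 11.3 in control whole prostate, against 54.8 and 76.3 in vinclozolin epithelium and 49.3 and 82.2 in control epithelium. It fell by 1.52 ± 0.32 (0.0153) and 1.73 ± 0.32 (0.0097) in the vinclozolin and the control lineage; 2 further tested Mgll probe sets did not pass, and another was too dim to test. Mgll is expressed in many tissues besides fat.

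Pnpla2, adipose triglyceride lipase, which takes the first fatty acid, read 111.9 and 104.0 in vinclozolin whole prostate and 154.7 and 155.8 in control whole prostate, against 104.8 and 98.1 in vinclozolin epithelium and 112.3 and 107.8 in control epithelium. The control whole prostate arrays alone stood above the rest, and Pnpla2 rose in the control lineage by 0.45 ± 0.11 (adjusted p = 0.0226, limma) but gave 0.18 ± 0.11 (0.262) in the vinclozolin lineage. Aqp7, the channel by which glycerol leaves the adipocyte, read 55.2 and 55.6 in vinclozolin whole prostate and 55.8 and 42.5 in control whole prostate, against 35.0 and 28.3 in vinclozolin epithelium and 25.8 and 3.7 in control epithelium. It rose by 1.34 ± 0.30 (0.0197) in the control lineage and gave 0.81 ± 0.30 (0.0924) in the vinclozolin lineage. Pnpla3, a relative of Pnpla2, rose on 1391544_at by 0.85 ± 0.22 in both lineages (0.0309 and 0.0314), with values of 16.3 and 29.5 in vinclozolin whole prostate and 25.4 and 31.8 in control whole prostate, against 5.2 and 9.9 in vinclozolin epithelium and 8.2 and 16.5 in control epithelium. Adrb3, the beta-3 adrenergic receptor that starts lipolysis in rodent fat, stayed between 10.2 and 28 on the 8 arrays and passed in neither lineage.

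Calls in this group also depended on single arrays and on the processing. Pnpla2 lost its control-lineage call without any 1 of the 4 control arrays, with adjusted p (limma) of 0.0566 to 0.106. Aqp7 lost it without either control whole prostate array (0.111 and 0.0671) and passed in the vinclozolin lineage without either control epithelium array (0.0143 and 0.0144). Pnpla3 lost its control-lineage call without either control whole prostate array (0.0961 and 0.146) or the first control epithelium array (0.13), and its vinclozolin-lineage call without 5 of the 8 arrays in turn, with values of 0.0548 to 0.138. Another Pnpla3 probe set, 1380013_at, passed without the second control epithelium array in the control lineage (0.0329) and without either one in the vinclozolin lineage (0.0285 and 0.0287). Mgll lost its control-lineage call without the first control whole prostate array (0.0539), and its vinclozolin-lineage call without the second vinclozolin array of whole prostate (0.0751) or of epithelium (0.0726). With all arrays, Mgll lost its vinclozolin-lineage call with 1 added in place of 16 (0.0819), Aqp7 lost its call with 1 added (0.0675) and with only the arrays compared (0.0571), and Pnpla2 with only the arrays compared (0.0569). Pnpla3 lost its control-lineage call with the values as deposited (0.0687), with 1 added (0.0675), with no filter (0.0504) and with a trended prior (0.0538), and its vinclozolin-lineage call with the values as deposited (0.0579), with a trended prior (0.0529) and with only the arrays compared (0.0627). Lipe 1387132_at kept its call in both lineages under every alternative run.

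Lpl, lipoprotein lipase, had the largest log2 difference of any member in both lineages on the log2(intensity + 16) scale; with 1 added in place of 16, Cfd (5.09 and 6.19) and Cidec (5.90 and 5.57) were above Lpl (4.42 and 4.31). It read 898.7 and 845.3 in vinclozolin whole prostate and 1043.5 and 1011.2 in control whole prostate, against 50 and 36.6 in vinclozolin epithelium and 53.9 and 54.7 in control epithelium, a rise of 3.97 ± 0.14 (adjusted p = 3.22e-05, limma) and 3.95 ± 0.14 (3.7e-05). Fabp4, the fatty acid binding protein of adipocytes, which endothelial cells and macrophages also make, read 690.1 and 631.7 in vinclozolin whole prostate and 766.5 and 612.7 in control whole prostate, against 99.2 and 77.6 in vinclozolin epithelium and 115.2 and 83.7 in control epithelium. Fabp4 rose by 2.74 ± 0.20 and 2.60 ± 0.20. Acsl1, the acyl-CoA synthetase that activates long-chain fatty acids, was bright in every group, with 2968.5 and 3058.5 in vinclozolin whole prostate and 2167.5 and 2291.7 in control whole prostate, against 1442.2 and 1512.2 in vinclozolin epithelium and 1190.7 and 1238.8 in control epithelium, on 1370939_at. It rose by 1.00 ± 0.11 (0.00135) and 0.93 ± 0.11 (0.00172). A second bright Acsl1 probe set, 1388153_at, rose by 0.97 ± 0.12 and 0.56 ± 0.12; the control-lineage call was lost without the second control whole prostate array (0.103) or either control epithelium array (0.0589 and 0.0613).

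The other carriers did not follow. Cd36, a fatty acid transporter of fat, muscle and capillary endothelium, read 53.2 and 76.0 in vinclozolin whole prostate and 40.4 and 50.2 in control whole prostate, against 37.1 and 52.6 in vinclozolin epithelium and 45.5 and 51.0 in control epithelium. The preparations overlapped in the control lineage and nearly met in the vinclozolin lineage, and Cd36 gave 0.62 ± 0.19 (adjusted p = 0.0564, limma) in the vinclozolin lineage and 0.12 ± 0.19 (0.692) in the control lineage. Slc2a4, the insulin-responsive glucose transporter GLUT4 of fat and muscle, was lower in whole prostate without passing: 23.8 and 27.8 in vinclozolin and 24.2 and 26.3 in control whole prostate, against 47.0 and 47.3 in vinclozolin and 57.8 and 36.2 in control epithelium on 1367989_at. With the values as deposited, not quantile normalised, both Slc2a4 probe sets passed as lower in the control lineage (-0.59, adjusted p = 0.0452, and -0.95, 0.0442), and 1 or the other passed without either control epithelium array (0.0438 and 0.0327). In the vinclozolin lineage Slc2a4 1367989_at passed without either control epithelium array (0.043 and 0.0441).

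**Figure D2:**
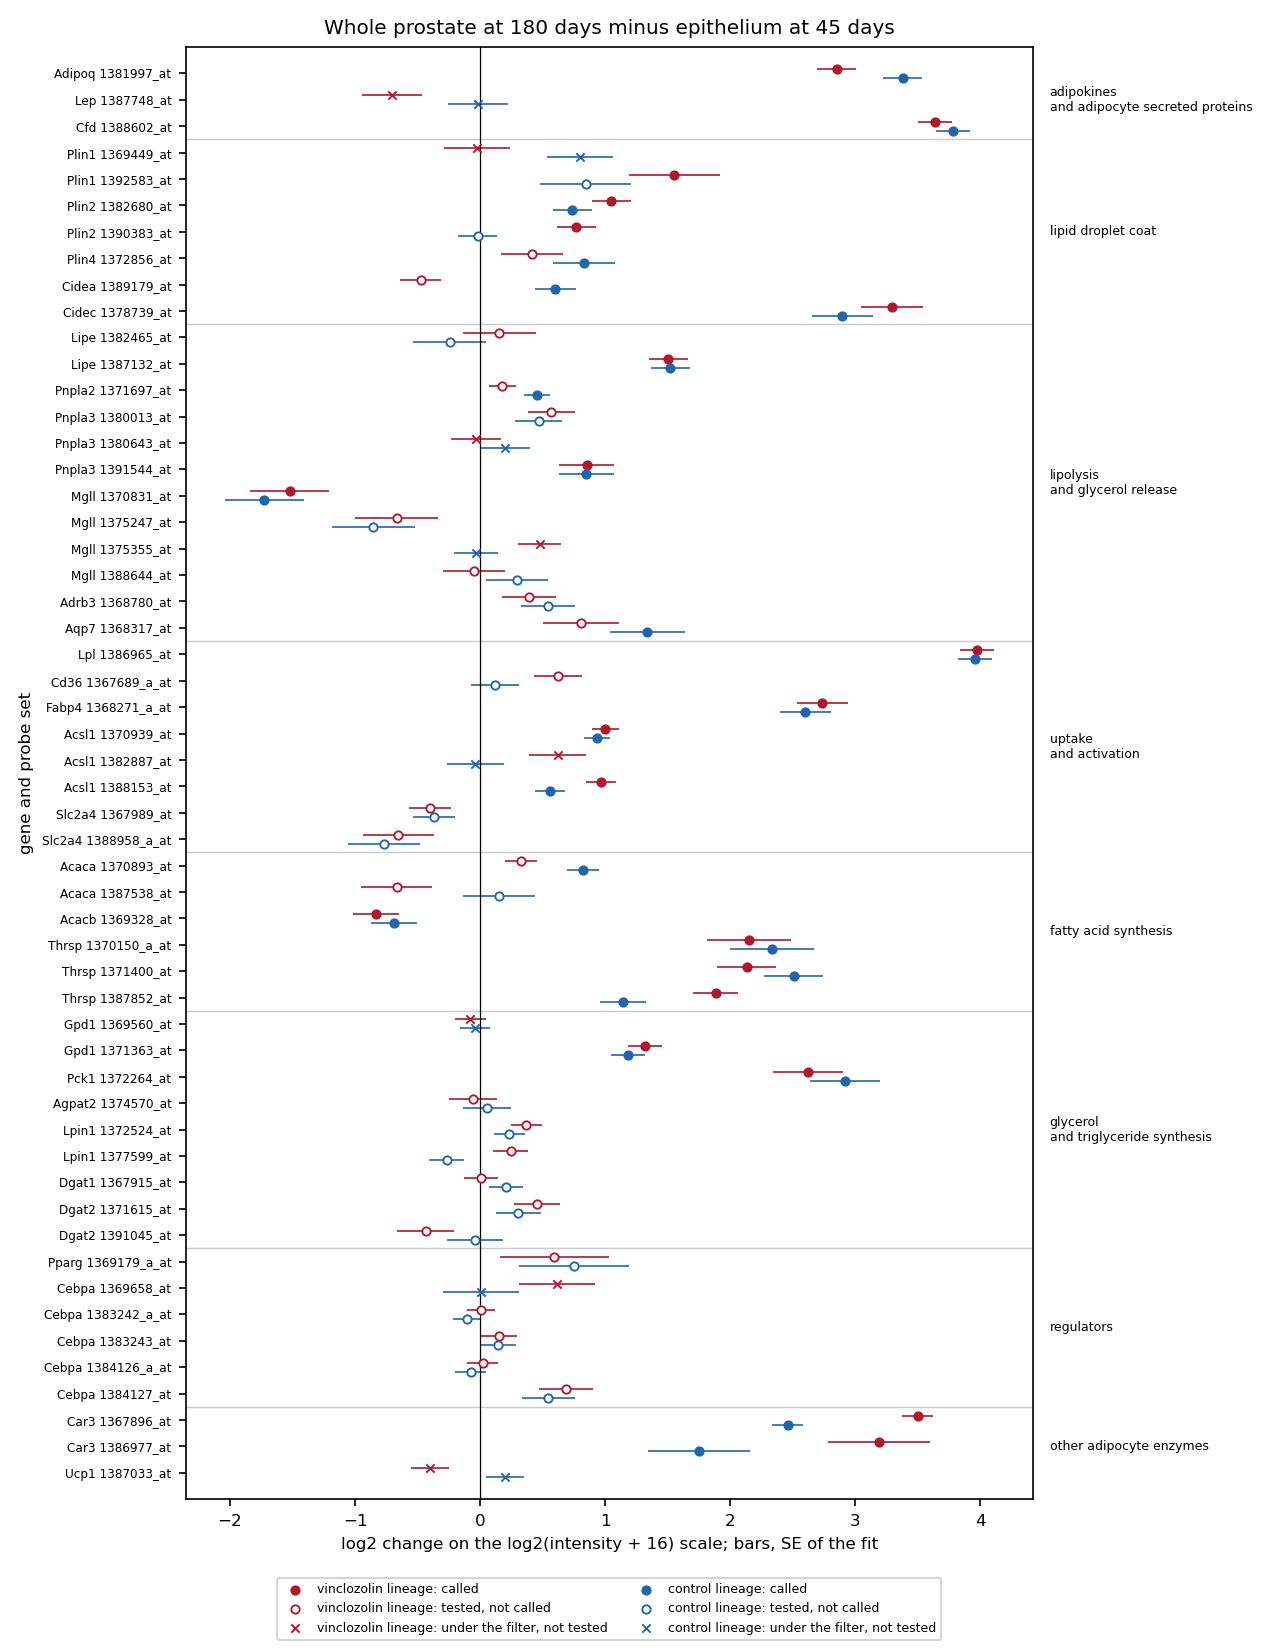
Log2 change of all 54 member probe sets, whole prostate minus epithelium, in the vinclozolin lineage (red) and the control lineage (blue), grouped by role; bars are the SE of the fit, filled points were called, open points were tested and not called, and crosses were under the intensity filter. Lpl, Cfd, Adipoq, Cidec, Fabp4, Pck1, Thrsp and Car3 lie farthest to the right in both lineages, while the triglyceride acyltransferases and Cebpa lie around 0.

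In fatty acid synthesis, Thrsp and the carboxylases behaved differently. Thrsp, Spot 14, a nuclear protein that rises with lipogenesis in liver and fat, was called higher on all 3 of its probe sets. On 1371400_at it read 230.5 and 192.6 in vinclozolin whole prostate and 185.6 and 210.6 in control whole prostate, against 41.3 and 39.1 in vinclozolin epithelium and 35.5 and 13.6 in control epithelium. The rise of Thrsp was 1.88 to 2.15 log2 units over the 3 probe sets in the vinclozolin lineage and 1.14 to 2.51 in the control lineage, with the largest adjusted p (limma) at 0.00596; with 1 added in place of 16, Thrsp 1370150_a_at lost its vinclozolin-lineage call (0.0735). Acaca, the cytosolic acetyl-CoA carboxylase that makes malonyl-CoA for synthesis, read 327.5 and 329.3 in vinclozolin whole prostate and 444.0 and 409.5 in control whole prostate, against 261.9 and 237.1 in vinclozolin epithelium and 203.6 and 240.1 in control epithelium, on 1370893_at. Acaca rose by 0.82 ± 0.13 (0.00552) in the control lineage under every alternative run, and gave 0.32 ± 0.13 (0.107) in the vinclozolin lineage. A dimmer Acaca probe set, 1387538_at, passed as lower in the vinclozolin lineage without its second whole prostate array (0.0177) and did not pass with all arrays.

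Acacb, the carboxylase at the mitochondrion that restrains fatty acid oxidation, was lower in whole prostate, at 8.3 and 20.7 in vinclozolin and 11.7 and 12 in control whole prostate, against 44.3 and 45.0 in vinclozolin and 40.4 and 32.0 in control epithelium. It fell by 0.83 ± 0.18 (adjusted p = 0.0186, limma) and 0.69 ± 0.18 (0.0347). The preparations did not overlap for Acacb, but the control-lineage call was lost without any 1 of 6 arrays, all 4 control ones among them (0.0529 to 0.135), and the vinclozolin-lineage call without the first vinclozolin whole prostate array (0.0573) or either vinclozolin epithelium array (0.0672 and 0.0713). With all arrays, Acacb lost its control-lineage call with 1 added in place of 16 (0.0612), with no filter (0.0567), with a trended prior (0.0736) and with a replicate block (0.0513), and its vinclozolin-lineage call with only the arrays compared (0.066).

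The glycerol branch rose and the acyltransferases did not pass. Pck1, which in fat supplies glycerol phosphate from pyruvate, read 166.8 and 175.3 in vinclozolin whole prostate and 194.9 and 192.7 in control whole prostate, against 7.1 and 29.9 in vinclozolin epithelium and 13.1 and 12.2 in control epithelium. Gpd1, the glycerol phosphate dehydrogenase that supplies it from glucose, read 121.6 and 94.5 in vinclozolin whole prostate and 88.4 and 101.6 in control whole prostate, against 41.7 and 37.5 in vinclozolin epithelium and 39.9 and 34.4 in control epithelium, on 1371363_at. The other Gpd1 probe set, 1369560_at, was too dim to test. Pck1 rose by 2.62 ± 0.28 (adjusted p = 0.00147, limma) and 2.92 ± 0.28 (0.000971), and Gpd1 by 1.32 ± 0.14 (0.00132) and 1.18 ± 0.14 (0.0019). The steps that follow, Agpat2, the phosphatidate phosphatase Lpin1, and Dgat1 and Dgat2, the enzymes of the last acylation, had changes between -0.44 and 0.46 on their 6 probe sets in either lineage, and 0 of the 6 passed. Dgat1, for example, read 229.2 and 245.4 in vinclozolin whole prostate and 227.5 and 238.5 in control whole prostate, against 257.1 and 205.8 in vinclozolin epithelium and 188.6 and 197.0 in control epithelium. With arrays centred on their medians in place of quantile normalisation, Dgat1 passed as higher in the control lineage (0.49, 0.0289), and Dgat2 and Lpin1 on 1 probe set each in both lineages; Dgat2 also passed in the vinclozolin lineage without the first vinclozolin epithelium array (0.0465).

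The regulators gave no call. Pparg was dim and uneven, at 14.8 and 32.0 in vinclozolin whole prostate and 25.1 and 19.8 in control whole prostate, against 3.8 and 24.8 in vinclozolin epithelium and 2.1 and 21.0 in control epithelium. Within each epithelium group 1 array read at the level of whole prostate and 1 far under it, and Pparg gave 0.59 ± 0.44 (adjusted p = 0.355, limma) and 0.75 ± 0.44 (0.251). Cebpa had 5 probe sets, of which 4 passed the filter and 0 were called, with changes of 0.01 to 0.68 in the vinclozolin lineage and -0.11 to 0.55 in the control lineage; Cebpa is also a factor of glandular epithelium. Its probe set 1384127_at passed as higher in the vinclozolin lineage without either control epithelium array (0.0221 and 0.0222) and in the control lineage without the first (0.0291). Ucp1, the uncoupling protein of brown fat, stayed under 16 on all 8 arrays and was highest in vinclozolin epithelium, at 14.5 and 14.6.

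Car3, a carbonic anhydrase abundant in fat, liver and slow muscle, had a wider gap between the preparations in the vinclozolin lineage than in the control lineage on both of its probe sets. On 1367896_at it read 1575.9 and 1552.3 in vinclozolin whole prostate and 1173.7 and 1138.2 in control whole prostate, against 132.4 and 118.5 in vinclozolin epithelium and 209.0 and 179.0 in control epithelium. It rose by 3.50 ± 0.12 (adjusted p = 3.32e-05, limma) in the vinclozolin lineage and 2.46 ± 0.12 (9.25e-05) in the control lineage. On 1386977_at it read 340.3 and 348.7 in vinclozolin whole prostate and 162.1 and 143.9 in control whole prostate, against 25.1 and 27.5 in vinclozolin epithelium and 69.4 and 15.1 in control epithelium, a rise of 3.19 ± 0.41 (0.00279) and 1.75 ± 0.41 (0.0221). The control-lineage call of Car3 1386977_at was lost without either control whole prostate array (0.109 and 0.0861), with 1 added in place of 16 (0.0578) and with only the arrays compared (0.0629).

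Over all 8 arrays, in the intensities as deposited, 20 of the 54 member probe sets (16 genes) had every whole prostate array above every epithelium array, 6 (4 genes) had every one below, and 28 overlapped. On the quantile normalised values, 24 of the 46 tested member probe sets (52.2%) stood above and 5 (10.9%) below, beside 20.2% and 16.2% of all probe sets tested. The 13 genes called higher in both lineages were Acsl1, Adipoq, Car3, Cfd, Cidec, Fabp4, Gpd1, Lipe, Lpl, Pck1, Plin2, Pnpla3 and Thrsp. Within a group the order of the replicates was not the same for all 13: the first array was the higher one for 9 of 13 in vinclozolin whole prostate and 6 of 13 in control whole prostate, and for 7 and 8 of 13 in vinclozolin and control epithelium. The 9 in vinclozolin whole prostate were Adipoq, Car3, Cfd, Cidec, Fabp4, Gpd1, Lpl, Plin2 and Thrsp. A shift shared by part of these genes between replicates was not tested. Acaca, Aqp7, Cidea, Plin4 and Pnpla2 were called higher in the control lineage only and Plin1 in the vinclozolin lineage only, but 0 of the 46 tested member probe sets passed the test of the difference between lineages. The division between members that rose and members that did not is one of degree: Plin4 in the control lineage passed at 0.0483 and Cd36 in the vinclozolin lineage did not at 0.0564.

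Other genes of the same pathways were called in both directions. Over all the further lipid lists, 74 of 179 tested probe sets (41.3%) were called in the vinclozolin lineage and 65 (36.3%) in the control lineage. These shares lay above the 27.4% and 27.8% of all probe sets tested and below the 45.7% and 52.2% of the members. Of 19 tested probe sets of further droplet and lipolysis genes, 5 were higher and 3 lower in whole prostate in the vinclozolin lineage, and 3 and 3 in the control lineage, with median log2 changes of 0.12 and 0.01. All 3 lower ones in each lineage were probe sets of Cav1, caveolin, which adipocytes share with smooth muscle and endothelium (-1.79 to -2.73 and -1.53 to -2.77). Of 26 probe sets of further fatty acid synthesis genes, 6 were higher and 6 lower in the vinclozolin lineage and 4 and 8 in the control lineage; Elovl6, the elongase of palmitate, rose and Elovl5 fell in both. Of 21 probe sets of uptake genes, 3 and 3, and 3 and 4, were called higher and lower, and Fabp5, the epidermal relative of Fabp4, fell by 1.12 ± 0.13 (adjusted p = 0.00206, limma) and 1.89 ± 0.13 (0.000323). Triglyceride synthesis gave 4 higher and 5 lower, and 5 and 4, of 21, and fatty acid oxidation 4 and 5, and 2 and 5, of 26.

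Among further regulators of adipogenesis, more probe sets were called lower than higher in whole prostate. Of 37 tested probe sets of 22 genes, 1 was higher and 15 lower in the vinclozolin lineage, where 13.1% of all probe sets were called lower, and 1 higher and 13 lower in the control lineage, where 12.9% of all were; the medians were -0.39 and -0.37, and the other probe sets did not pass. Klf4 fell by 1.92 ± 0.13 and 2.19 ± 0.13, Cebpd fell by 1.83 ± 0.13 and 2.11 ± 0.13, and Zfp36l1 fell by 1.57 ± 0.11 and 1.38 ± 0.11, each with an adjusted p (limma) at or under 0.000522; all are also immediate response genes in many cell types. Of 22 probe sets of further adipokines and receptors, 6 were higher and 6 lower, and 5 and 3. Rbp4, the retinol carrier made by liver and fat, rose by 2.02 ± 0.15 and 2.43 ± 0.15, and Nnat, neuronatin, which is present in fat and in endocrine cells, by 2.35 ± 0.15 and 2.16 ± 0.15. Irs2, an adaptor of the insulin receptor, fell by 2.85 ± 0.16 and 1.82 ± 0.16, with the lowest p of this list in the vinclozolin lineage. Of 11 probe sets of brown and beige fat genes, 1 was higher and 2 lower in each lineage.

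**Figure D3:**
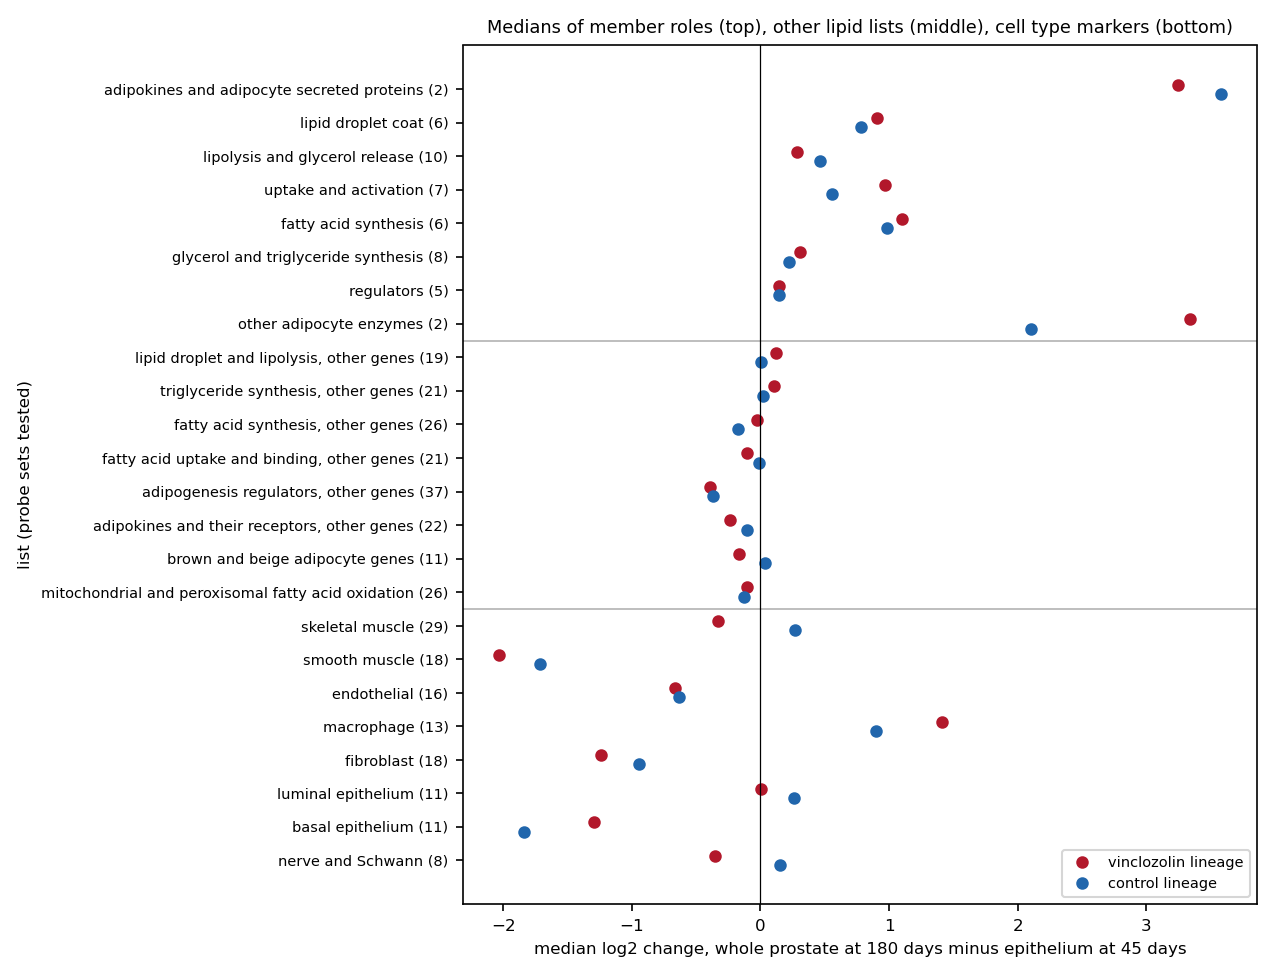
Median log2 change, whole prostate minus epithelium, of the tested probe sets of each list (number in brackets), in the vinclozolin lineage (red) and the control lineage (blue). Adipocyte secreted proteins and the other adipocyte enzymes (Car3) lie at 2.10 or more in both lineages, the other lipid lists lie between -0.39 and 0.12, and smooth muscle and basal epithelial markers lie at -1.29 or lower.

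The labels of the preparations were set against cell type markers. Of the 5 defining adipocyte markers, Adipoq, Plin1, Cidec, Lep and Retn, the summed intensity of the 4 measured was 493 to 533 in vinclozolin and 474 to 505 in control whole prostate, against 69 to 72 in vinclozolin and 43 to 64 in control epithelium. Markers of stroma ran the other way from the name of the preparation. Summed intensity of 12 smooth muscle markers was 8592 to 9024 in vinclozolin and 8684 to 8789 in control whole prostate, against 24096 to 24174 in vinclozolin and 26752 to 27175 in control epithelium, and 14 of their 18 probe sets were lower and 0 higher in whole prostate in each lineage. For 12 fibroblast markers the sums were 3908 to 4016 and 4350 to 4374 in vinclozolin and control whole prostate, against 10160 to 10608 and 10400 to 10999 in vinclozolin and control epithelium. Of the 18 fibroblast probe sets, 4 were higher and 12 lower in whole prostate in the vinclozolin lineage, and 2 and 12 in the control lineage. Skeletal muscle calls were mixed: of 29 probe sets, 2 were higher and 10 lower in the vinclozolin lineage, and 11 and 8 in the control lineage. The skeletal muscle sums were 1997 to 2071 in vinclozolin and 4106 to 4381 in control whole prostate. In epithelium they were 7909 to 7965 in vinclozolin and 9271 to 9285 in control samples. The samples labelled epithelium thus had higher summed smooth muscle, fibroblast and skeletal muscle signal than whole prostate, and a lower sum of the adipocyte markers. The adipocyte sum repeats member values given above and is not a separate check. Lep, 1 of its 4 genes, read higher in vinclozolin epithelium than in vinclozolin whole prostate. Luminal epithelial sums ran in opposite directions in the lineages. They were 22338 to 22926 in vinclozolin whole prostate, below the 25469 to 25511 in vinclozolin epithelium, and 25642 to 26278 in control whole prostate, above the 23604 to 24266 in control epithelium. Msmb, 1 of the 11 genes summed, changed in the same directions. It read 2243.8 and 2302.3 in vinclozolin whole prostate, against 4331.8 and 4745.6 in vinclozolin epithelium. In the control lineage it read 5881.1 and 5575.3 in whole prostate, against 2663.8 and 2904.9 in epithelium. Sums without Msmb were not taken. The median log2 change of the 11 luminal probe sets tested was 0.005 in the vinclozolin and 0.26 in the control lineage. The 8 measured basal epithelial markers summed to 817 to 834 and 789 to 851, against 3743 to 3752 and 3818 to 3940.

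Lpl, Fabp4 and Cd36 are also made by endothelium or macrophages. Of 16 endothelial probe sets, 0 were higher and 7 lower in whole prostate in the vinclozolin lineage and 1 higher and 8 lower in the control lineage, with sums of 484 to 527 and 439 to 450, against 1086 to 1136 and 981 to 1006. Of 13 macrophage probe sets, 9 were higher and 2 lower, and 4 and 0, with medians of 1.41 and 0.90, while the macrophage sum, led by its brightest genes, ran lower in whole prostate (5605 to 6306 and 7649 to 8264, against 7341 to 7481 and 8851 to 10319). The part of macrophage RNA in the Lpl and Fabp4 results was not tested. RNA quality moved with the preparation too: the 3′ to 5′ signal ratio of Actb was 3.14 to 3.37 in vinclozolin and 3.74 to 3.98 in control whole prostate, against 2.26 to 2.35 in vinclozolin and 2.27 to 2.57 in control epithelium, and its part was not tested.

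The second question was whether the vinclozolin lineage differed from the control lineage. In whole prostate, 0 of the 46 tested member probe sets were called (limma, adjusted p under 0.05), beside 1.74% of all probe sets; before adjustment, 7 of the 46 (15.2%) had a p under 0.05, beside 18.7% of all. The 2 vinclozolin arrays lay entirely above the 2 control arrays for 11 member probe sets (23.9%) and below for 9 (19.6%), beside 26.1% and 27.8% of all probe sets. The members' median change was 0.0645, beside -0.0092 over all probe sets. In epithelium 0 of 46 were called, beside 0.0092% of all (0.0046% higher and 0.0046% lower), and 11 (23.9%) had a p under 0.05 before adjustment, beside 11.4% of all; 12 lay above (26.1%) and 9 below (19.6%), beside 19.7% and 19.7%. The median was 0.0334, beside -0.0018. The difference of the lineage effects, whole prostate minus epithelium, gave 0 of 46 calls, beside 0.29% of all, and 8 of 46 (17.4%) had a p under 0.05 before adjustment, beside 13.5%.

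Adipocyte markers were close between lineages in whole prostate, within wide intervals. Adipoq gave a log2 change of -0.05 (95% interval -0.42 to 0.32), Cfd 0.23 (-0.10 to 0.55), Cidec 0.43 (-0.16 to 1.01), Fabp4 -0.03 (-0.52 to 0.45) and Lpl -0.26 (-0.59 to 0.06). An interval that spans 0 does not show that the lineages were equal. In epithelium Adipoq gave 0.48 (0.11 to 0.85, adjusted p = 0.35 by limma) and Cfd 0.36 (0.04 to 0.69, 0.396), from dim values of 33.5 and less. Other markers went either way there. Mean log2 values of Plin1 1392583_at were 4.739 in vinclozolin and 5.509 in control epithelium, and those of Cidec 4.158 and 4.129. In the same order Fabp4 gave 6.631 and 6.8, Lpl 5.765 and 6.047, and Lep, which was not tested, 5.145 and 4.187. In neither preparation did a defining adipocyte marker pass.

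**Figure D4:**
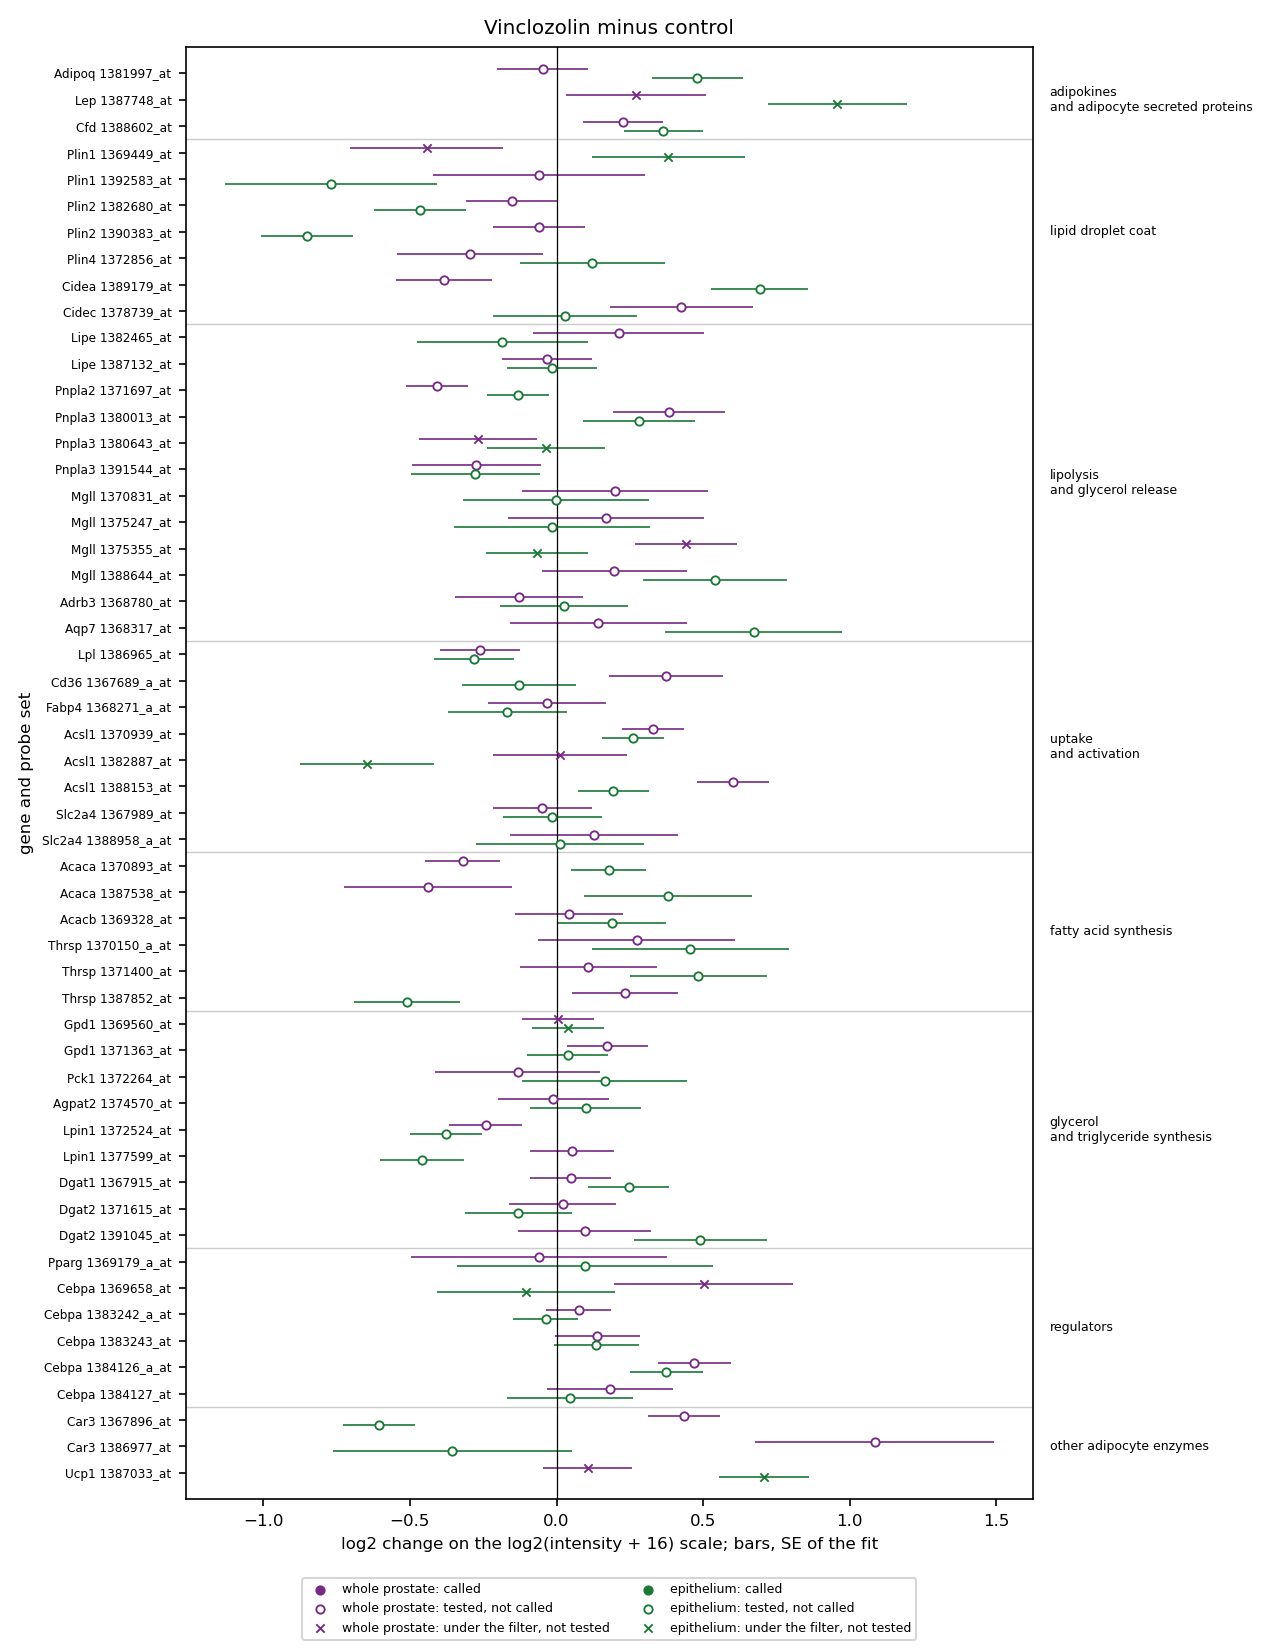
Log2 change of all 54 member probe sets, vinclozolin minus control, in whole prostate (purple) and epithelium (green); bars are the SE of the fit, open points were tested and not called, crosses were under the intensity filter, and no point is filled because no member was called. The Car3 points of whole prostate lie to the right of 0 and those of epithelium to the left.

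The members with the lowest p in whole prostate were Acsl1, Pnpla2, Cebpa and Car3. Acsl1 on 1388153_at read 1461.6 and 1479.6 in vinclozolin whole prostate, against 919.6 and 1045.7 in control whole prostate, a change of 0.60 ± 0.12 (adjusted p = 0.0682, limma), and on 1370939_at it gave 0.33 ± 0.11 (0.174). Both tested Acsl1 probe sets had their vinclozolin arrays above their control arrays in epithelium as well, by 0.19 ± 0.12 and 0.26 ± 0.11 with no call. Another Acsl1 probe set, 1382887_at, was too dim to test and ran the other way there. It read 1.7 and 0.8 in vinclozolin epithelium, against 12.4 and 11.7 in control epithelium. Pnpla2, given by array above, was lower by sign and not overlapping, at -0.41 ± 0.11 (0.117) in whole prostate and -0.13 ± 0.11 in epithelium. Cebpa on 1384126_a_at read 50.7 and 43.5 in vinclozolin whole prostate, against 25.4 and 31.4 in control whole prostate (0.47 ± 0.12, 0.121), and 53.5 and 58.2 in vinclozolin epithelium, against 40.3 and 37.3 in control epithelium (0.37 ± 0.12, 0.357). Its 3 other tested probe sets gave 0.08 to 0.18 in whole prostate.

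Car3 was the member with the lowest p for the difference of lineage effects between the preparations. In whole prostate the vinclozolin arrays stood above the control arrays, with 0.43 ± 0.12 (adjusted p = 0.14, limma) on 1367896_at and 1.08 ± 0.41 (0.227) on 1386977_at. In epithelium they stood below on the first, at -0.61 ± 0.12 (0.233), and overlapped on the second. The difference of these effects was 1.04 ± 0.17 (0.0873; 95% interval 0.62 to 1.46) on 1367896_at and 1.44 ± 0.58 (0.354) on 1386977_at. With 64 added before the logarithm in place of 16, Car3 passed in whole prostate on both probe sets (0.0393 and 0.0196) and the difference passed on 1367896_at (0.0132). Car3 1386977_at also passed in whole prostate when either control epithelium array was left out (0.0291 each).

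Some markers of other cell types were called between the lineages in whole prostate, where Car3 was not called. Of 29 skeletal muscle probe sets 7 were lower and 0 higher in the vinclozolin lineage, beside 0.925% of all probe sets called lower and 0.819% higher, with a median of -0.93, and the sum of 24 genes was 1997 to 2071 in vinclozolin against 4106 to 4381 in control whole prostate, and 7909 to 7965 in vinclozolin against 9271 to 9285 in control epithelium. In epithelium 0 of the 29 muscle probe sets were called, beside 0.0092% of all probe sets, with a median of -0.10. Car3 was above 0 and the muscle median below 0 in whole prostate, and both were below 0 in epithelium. The part of muscle RNA in the Car3 values was not tested. Of 13 macrophage probe sets, 2 were higher and 0 lower, Csf1r by 1.11 ± 0.15 (adjusted p = 0.0261, limma) and Fcgr3a by 1.17 ± 0.19 (0.0404), and the median was 0.45, while the macrophage sums given above ran lower in vinclozolin than in control whole prostate. Of 18 smooth muscle probe sets 0 passed, with a median of -0.32 and 8 lower and 1 higher at an unadjusted p under 0.05. Single markers of other types also passed: Esam of endothelium rose by 0.73, and Msmb of luminal epithelium and Pmp22 of Schwann cells fell by 1.55 and 0.76. The part of these cell types in the lineage values was not tested. The Actb 3′ to 5′ ratio was also lower in vinclozolin than in control whole prostate, and its part was not tested.

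In epithelium the lowest p among members were those of Plin2, Car3 and Cidea. Plin2 on 1390383_at read 146.7 and 153.6 in vinclozolin epithelium, against 322.0 and 239.0 in control epithelium, a change of -0.85 ± 0.16 (adjusted p = 0.213, limma; 95% interval -1.23 to -0.47), and on 1382680_at it gave -0.47 ± 0.16 (0.361). Both Plin2 probe sets had their vinclozolin arrays below their control arrays in epithelium, whereas in whole prostate the changes were -0.06 and -0.15. Cidea gave 0.69 ± 0.16 (0.264) in epithelium and -0.38 ± 0.16 in whole prostate, and the difference of the effects was -1.08 ± 0.23 (0.156). The phosphatidate phosphatase Lpin1 gave -0.38 ± 0.12 and -0.46 ± 0.14 on its 2 probe sets in epithelium (0.353 and 0.329). With a trended, robust prior for the spread, Plin2 1390383_at (0.00646) and Car3 1367896_at (0.00713) passed in epithelium.

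Of 179 tested probe sets of the further lipid genes, 4 (2.23%) were called in the lineage comparison of whole prostate, a share near the 1.74% of all probe sets, and 0 in epithelium. Klf5, a Krüppel-like factor that acts with C/EBP proteins in adipogenesis and is also an epithelial factor, read 148.4 and 136.7 in vinclozolin whole prostate, against 310.4 and 305.5 in control whole prostate, and fell by 0.97 ± 0.13 (adjusted p = 0.0225, limma). Irs2, an adaptor of the insulin receptor, fell by 1.20 ± 0.16 (0.0246) and Got2, the mitochondrial aspartate aminotransferase that also binds fatty acids, fell by 0.88 ± 0.15 (0.0473). Acaa2, the thiolase of mitochondrial fatty acid oxidation, rose by 0.79 ± 0.12 (0.0366). None of the 179 probe sets of these further lists passed the difference of lineage effects.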

How the data were processed

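Gene expression was measured on 8 arrays of 8 samples, grouped by their titles. The authors deposited probe set intensities on a linear scale, 31099 to an array. RNA was labelled with biotin by the standard Affymetrix procedure, per the labels' protocols. The software that computed the intensities was not given in the sources used here. After 57 control probe sets were left out, values were taken to log2(intensity + 16) and quantile normalised, and the dimmest probe sets, those whose mean lay below percentile 30 (about 13.7 intensity units), were left out, which kept 21729. Gene symbols are those of the platform annotation, which can be old; 20826 probe sets had 1 symbol, 436 several (1 of them with a member) and 9780 none.

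Group means were fitted with limma 3.58.1 in R 4.3.3 on all 8 arrays, with Benjamini-Hochberg adjustment over all probe sets tested; a probe set is called at an adjusted p under 0.05. Genes with several probe sets are given by probe set. The fit was tested on simulated data. With 2 arrays a group, the number of arrays limits the precision. Replicate numbers did not pair the samples: same-numbered deviations correlated by -0.02 to 0.029 between groups. The members and lists were chosen with earlier results of these data known. Values on every array are given for called members and for the adipocyte markers Adipoq, Plin1, Cidec and Lep; further genes are among the called ones with the lowest p of 8 lipid and 8 cell type lists. Further members with low p in the lineage comparisons, and the motifs CCAAT and TGACGT, were chosen after their values or sequences were seen. Promoters are from RefSeq, assembly GRCr8. Alternatives changed the scaling, the number added before the logarithm, the filter, the prior, the arrays fitted and a replicate block, and left out each array in turn. Python 3.11.15 and matplotlib 3.10.9 were used for tables and plots.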

Additional observations from a re-analysis of the deposited data

How the results depend on the processing

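No result changed direction past the threshold. Of the 24 member probe sets called between preparations in the control lineage, 14 (12 genes) kept their call in all 16 alternatives, and 15 (12 genes) of the 21 in the vinclozolin lineage did. With arrays left out in turn, member calls ranged from 16 to 25 in the vinclozolin lineage and from 15 to 24 in the control lineage, and calls over all probe sets from 3332 to 6022 and from 2648 to 5789. In the lineage comparison of whole prostate the same ranges were 0 to 1 members and 24 to 225 of all probe sets, in epithelium 0 members and 0 of all, and for the difference of lineage effects 0 members and 5 to 19 of all. The median change of the tested members was 0.815 in the vinclozolin and 0.808 in the control lineage with 1 added in place of 16, 0.304 and 0.326 with 64, and 0.392 in the vinclozolin lineage with the values as deposited; a larger number added shrinks the change of dim probe sets by construction. Fitting only the arrays compared gave 3931 calls over all probe sets in the vinclozolin lineage.

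Counts of calls between lineages moved most. In whole prostate all probe sets gave 235 calls with 1 added, 1133 with 64, 200 with no filter, 1814 with a trended robust prior and 65 with only the arrays compared, against 379. Members gave 3 calls with 64 added (Acsl1 and both Car3) and 3 with the trended prior (both Acsl1 and Car3 1367896_at). In epithelium all probe sets gave 1 call with median centring, 0 with 1 added, 66 with 64, 0 with no filter, 205 with the trended prior and 0 with only the arrays compared, against 2, and members gave 2 with the trended prior. The difference of effects gave 40, 262, 32 and 540 with 1 added, 64 added, no filter and the trended prior, against 63, and members gave 1 with 64 added and 2 with the trended prior (Car3 1367896_at and Plin2 1390383_at). The cause of these changes was not tested.

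With the replicate number as a block, all probe sets gave 177, 0 and 26 calls in these 3 comparisons and members 0; between preparations members gave 22 calls in the vinclozolin lineage and 21 in the control lineage. Median centring changed the split of all calls between preparations to 5013 higher and 2415 lower in the vinclozolin lineage, against 3095 and 2851, and to 5536 and 2246 in the control lineage, against 3250 and 2801. Of the member probe sets, 5 read under 16 on all 8 arrays, so changes of Ucp1 could not be measured.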
